A study of Mus musculus with 9 samples.

Results

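The comparison was changed housing, either stress or an enriched environment, against standard housing, and it asked which transcripts differed from standard housing in the same way under both. It used all 9 of the 9 brain RNA-seq libraries of the study, grouped by the group field of the sample labels. The changed-housing side held 6 libraries, from 3 mice exposed to stress and 3 mice given an enriched environment, and the standard side held 3 control libraries. All 9 mice, controls included, had the APP/PS1 genotype, in which transgenes for the amyloid precursor protein and presenilin 1 give amyloid plaques. The promoter of the transgenes, the age of the mice and the length of the housing are not given in the sources used here, there was no group without the transgenes, and the treatment field gives standard rearing for every mouse. The tissue was the brain stem with the front part of the brain after perfusion, so a library mixes several brain regions. Each title carries its own animal code, and the replicates were taken as separate animals. The code starts with C in the 3 stress mice and control replicate 1, and with D in the 3 enriched mice and control replicates 2 and 3. The sources used here do not say what it means.

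Stress and enrichment are often studied as opposite manipulations of the housing of mice. Stress acts through the glucocorticoid axis and is known to damp plasticity, while enrichment raises neuronal activity, immediate early genes and neurotrophins. Both are departures from the standard cage, with new objects, handling or company, so a set of transcripts could differ from standard housing in both. Interferon-stimulated genes, which belong to the antiviral programme of many cell types, are also known to be active in microglia around amyloid plaques.

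Libraries held 15851833 to 17213008 estimated counts, and 14694 genes were tested. Levels are in CPM (counts scaled by library size), and 1 CPM stood for 15.9 to 16.8 reads. Libraries of 1 group stood apart from each other in their content of regional and border tissue. The 13 choroid plexus genes summed to 3145 to 3851 CPM in the controls, to 401 to 1575 CPM in stress and to 73.2, 2222 and 61.9 CPM in enriched replicates 1, 2 and 3. Relative to the control mean, 17 brain stem genes had an average log2 CPM of 0.86, 1.02 and -1.88 in the controls, 0.58, -0.16 and -2.46 in stress and -0.50, -0.79 and -2.57 in enriched replicates. Values without enriched replicates 1 and 3 are given below for border tissue lists and for the lower genes described in most detail.

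With p-values adjusted by the Benjamini-Hochberg method over all 14694 genes, 1 gene passed 0.05 in edgeR's quasi-likelihood test, and it was higher in changed housing (0.00681% of the genes tested). No gene passed in the lower direction (0 genes, 0%), where limma-voom also called 0 and DESeq2 called 28. At an unadjusted p under 0.05 there were 1471 higher genes (10%) and 1598 lower genes (10.9%). The same split was 2653 higher and 450 lower on the deposited TPM (scaled by transcript length as well), where the median log2 fold change of all genes was 0.15 in place of 0.02. In 295 genes (2.01%) all 6 changed-housing libraries lay above all 3 controls, and in 377 genes (2.57%) all 6 lay below. These 672 genes had a median absolute log2 fold change of 0.37. Their number was 4499 without control replicate 3, 2616 without stress replicate 3, 1082 without control replicate 2, 1014 without enriched replicate 1 and 1145 without enriched replicates 1 and 3 together. Genes called numbered 1771 without control replicate 3, 3 without stress replicate 3 and 0 without any other single library.

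Samd9l (gene 209086, chr6:3372257-3399571 on GRCm38.p6), an interferon-inducible gene whose product restricts viruses and cell growth, was the gene that rose. It was at 1.99, 2.54 and 2.0 CPM in the controls, at 6.01, 7.32 and 5.62 CPM in stress and at 6.95, 5.89 and 6.21 CPM in the enriched mice. All 6 changed-housing libraries were above every control, and the stress and enriched libraries overlapped each other. The mean was 2.17 ± 0.313 CPM in the controls (SD, n = 3) and 6.33 ± 0.662 CPM in changed housing (SD, n = 6). The log2 fold change was 1.54 ± 0.17 (SE), with an adjusted p of 0.0226 by edgeR's quasi-likelihood test. These levels rest on 33, 42 and 33 estimated reads in the controls, on 99, 119 and 92 in stress and on 116, 99 and 99 in the enriched mice. Only 1 of the 2 annotated coding transcripts of Samd9l had a row in the table. Taken singly against the same controls, Samd9l was higher by 1.54 ± 0.19 in stress and by 1.54 ± 0.19 in enrichment (log2, SE), and stress minus enriched was -0.01 ± 0.18 (unadjusted p = 0.97 by edgeR's quasi-likelihood test). Over 20 alternative fits its log2 fold change lay between 0.96 and 1.66. The call was lost on leaving out any single library other than control replicate 3 or stress replicate 3 (adjusted p 0.0728 to 0.291 by edgeR), with the animal code letter as a covariate (0.0686), with a transcript length trend removed (0.0681), with stress and enriched fitted as separate groups (0.0794) and on the TPM with limma (0.103).

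The promoter of Samd9l is shown beside that of Bst2, the interferon-stimulated gene that lay lowest in the same comparison. Both are RefSeq windows of GRCm38.p6, 250 bases before to 50 bases after the annotated start, on the minus strand, at chr6:3399522-3399821 for Samd9l and chr8:71537423-71537722 for Bst2. The capitals mark matches, on either strand, to GAAANNGAAA, a core of the interferon-stimulated response element, in Bst2, and to the shorter GAAANNGAA in Samd9l.
Samd9l: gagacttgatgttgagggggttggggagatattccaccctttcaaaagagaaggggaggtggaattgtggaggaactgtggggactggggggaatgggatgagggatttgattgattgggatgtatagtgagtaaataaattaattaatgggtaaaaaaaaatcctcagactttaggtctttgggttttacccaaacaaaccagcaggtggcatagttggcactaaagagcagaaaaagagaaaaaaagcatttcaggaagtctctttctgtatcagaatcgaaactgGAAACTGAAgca
Bst2: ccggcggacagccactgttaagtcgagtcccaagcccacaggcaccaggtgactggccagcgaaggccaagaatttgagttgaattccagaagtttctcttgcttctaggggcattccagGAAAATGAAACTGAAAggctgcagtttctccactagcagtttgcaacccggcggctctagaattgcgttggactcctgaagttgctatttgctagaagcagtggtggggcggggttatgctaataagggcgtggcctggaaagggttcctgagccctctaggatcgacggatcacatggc
Samd9l has no GAAANNGAAA in this window and 1 GAAANNGAA at bases 39 to 47 from the start, while Bst2 has a pair of overlapping GAAANNGAAA matches upstream, the first at -130 to -121 and the second at -124 to -115. The longer motif was found in 3.44% of 32851 promoter windows and in 11 of the 18 interferon-list genes with a window. The shorter motif, which also counts every match of the longer one and was chosen after the Samd9l window was seen, was found in 8.56% and in 13 of 18. A match describes letters only.

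**Figure D1:**
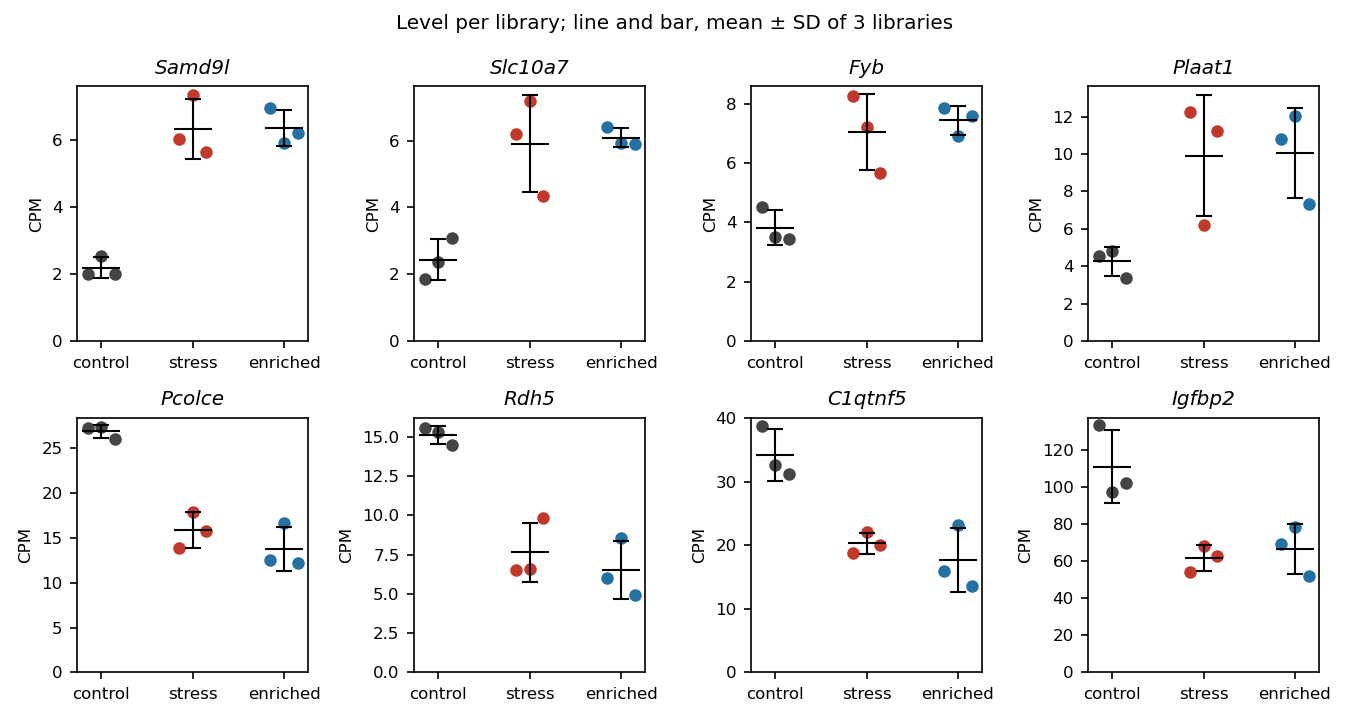
CPM in each of the 9 libraries for 4 of the higher genes (top) and 4 of the lower genes (bottom), by group, with the mean and SD of 3 libraries as line and bar on linear axes from 0. In each of the 8 genes the stress and enriched libraries overlap each other and do not reach the controls, as in Samd9l, with controls at 1.99 to 2.54 CPM and changed housing at 5.62 to 7.32 CPM. The genes were chosen by p in the same libraries, which favours such separation.

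The next 11 genes in the higher direction, taken in order of p among genes of at least 1 CPM on average, did not pass (adjusted p = 0.2185 each by edgeR's quasi-likelihood test). DESeq2, which called 25 higher genes of 14694 tested, called 6 of the 11. It gave no adjusted p to the other 5, which its filter on mean count removed. Without that filter, a choice made after seeing the data, DESeq2 called Slc10a7, Fyb, Col24a1 and 1110002E22Rik. Cd33 did not pass there (adjusted p = 0.0607 by DESeq2). All 11 passed edgeR's test without control replicate 3 (adjusted p 0.0368 to 0.0401), a fit in which 1771 of 14853 genes passed. None of the 11 overlapped between the 6 and the 3 libraries, where 2.01% of all genes lay wholly above. The choice by p in the same libraries favours such separation. Fyb, an adaptor of T cells and myeloid cells, was at 4.52, 3.50 and 3.45 CPM in the controls, at 8.26, 7.20 and 5.68 in stress and at 7.85, 6.90 and 7.59 in the enriched mice. Its log2 fold change was 0.92 ± 0.17 (SE). Cd33, a sialic acid-binding receptor of myeloid cells whose human counterpart is an Alzheimer's disease risk gene, was at 1.03, 1.15 and 1.39 CPM, at 2.85, 2.40 and 1.89 CPM and at 2.34, 2.91 and 2.38 CPM in the same order of groups, a log2 difference of 1.05 ± 0.22. For both genes every changed-housing library was above every control.

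Slc10a7, a solute carrier of the bile acid transporter family, was at 1.87, 2.35 and 3.09 CPM in the controls, at 6.19, 7.20 and 4.34 CPM in stress and at 6.41, 5.95 and 5.90 CPM in the enriched mice (log2 1.30 ± 0.21). Its estimated reads moved between several similar transcripts from library to library, so only the sum over transcripts is given. Slc2a13, which carries myo-inositol together with protons, was at 50.3 ± 6.44 CPM in the controls and at 69.9 ± 5.16 CPM in changed housing (SD, n = 3 and 6; log2 0.47 ± 0.10, and 0.28 with the transcript length trend removed). Neto1, an auxiliary subunit of kainate receptors, was at 27.4, 22.1 and 36.7 CPM in the controls and between 39.4 and 52.1 CPM in changed housing, with a log2 difference of 0.69 ± 0.15. Its highest control and lowest changed-housing library were thus close.

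Col24a1, a fibrillar collagen chain, gave the highest fold of the 24 genes named by this rule, with 0.724, 0.725 and 0.666 CPM in the controls, 4.43, 7.14 and 1.16 CPM in stress and 4.13, 3.63 and 6.71 CPM in the enriched mice. Stress replicate 3 lay close to the controls, and the log2 fold change was 2.67 ± 0.52. Plaat1, an enzyme that transfers acyl chains between phospholipids, was at 4.52, 4.83 and 3.39 CPM in the controls and between 6.22 and 12.3 CPM in changed housing (log2 1.23 ± 0.25). Plagl1, an imprinted zinc finger transcription factor, was at 8.68, 12.3 and 13.9 CPM in the controls, and its lowest changed-housing library, stress replicate 3, was at 14.2 CPM (log2 0.88 ± 0.20). The others were Orc3, a subunit of the origin recognition complex (log2 0.46 ± 0.09), Nxf1, the main export receptor of messenger RNA (0.33 ± 0.07), and 1110002E22Rik, for which no role is given (1.11 ± 0.24).

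In the lower direction, the 12 genes with the smallest p did not pass either (adjusted p = 0.2185 each by edgeR's quasi-likelihood test). None overlapped between the 6 and the 3 libraries, a separation that the choice by p favours (2.57% of all genes lay wholly below). DESeq2, which called 28 lower genes of 14694 tested, called 11 of the 12. Its adjusted p ran from 1.68e-05 for Pcolce to 0.02 for Paqr6, and H4c8 was given none. All 12 passed edgeR's test without control replicate 3 (adjusted p 0.0368 to 0.0373), where 1771 of 14853 genes passed. Pcolce, which enhances the trimming of procollagen, was at 27.3, 27.4 and 26.0 CPM in the controls, at 13.8, 17.9 and 15.8 CPM in stress and at 12.6, 16.6 and 12.2 CPM in the enriched mice. All 6 changed-housing libraries were well below the controls, with means of 14.8 ± 2.32 against 26.9 ± 0.746 CPM (SD, n = 6 and 3) and a log2 fold change of -0.86 ± 0.13. Rdh5, a retinol dehydrogenase, was at 15.6, 15.3 and 14.5 CPM, at 6.5, 6.58 and 9.83 CPM and at 5.99, 8.56 and 4.95 CPM in control, stress and enriched mice, a log2 difference of -1.09 ± 0.19.

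Igfbp2, a binding protein of insulin-like growth factors, was at 133, 97.4 and 102 CPM in the controls, at 54.3, 68.1 and 62.9 CPM in stress and at 69.1, 78.4 and 52 CPM in the enriched mice (log2 -0.79 ± 0.14). C1qtnf5, a secreted protein of the C1q and TNF family, was at 34.2 ± 4.02 CPM in the controls and 18.9 ± 3.66 CPM in changed housing (SD, n = 3 and 6; log2 -0.85 ± 0.16). The lower genes also held Col9a3, a chain of collagen IX (-0.73 ± 0.14), Sod3, the secreted superoxide dismutase (-0.48 ± 0.10), and Slc29a4, a monoamine transporter of the plasma membrane (-0.56 ± 0.11). Ldoc1, a gene derived from a retrotransposon, was at 13.1 to 14.0 CPM in the controls and at 7.10 to 9.91 CPM in changed housing (-0.68 ± 0.13). Sil1, a partner of the endoplasmic reticulum chaperone BiP, was at -0.52 ± 0.11 and Paqr6, a membrane progesterone receptor, at -0.54 ± 0.11 on the log2 scale. H4c8, one of many near-identical histone H4 genes whose reads are uncertain, was at -1.60 ± 0.33, and at -1.06 without control replicate 1.

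Choroid plexus transcripts were lower in the same libraries, with summed levels as given above, and their part in those results was not tested. Without enriched replicates 1 and 3, which held the least choroid plexus RNA, the log2 fold change was -0.75 for Pcolce, -0.94 for Rdh5, -0.75 for Igfbp2 and -0.70 for C1qtnf5, -0.62 for Col9a3 and -0.43 for Sod3, and 1.51 for Samd9l. All 24 named genes had the same sign in each of the 20 alternatives that gave a value, which is largely built in. The genes were chosen by p, and the alternatives reuse the same libraries. In bulk tissue, fewer cells of a type and less RNA per cell cannot be told apart.

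**Figure D2:**
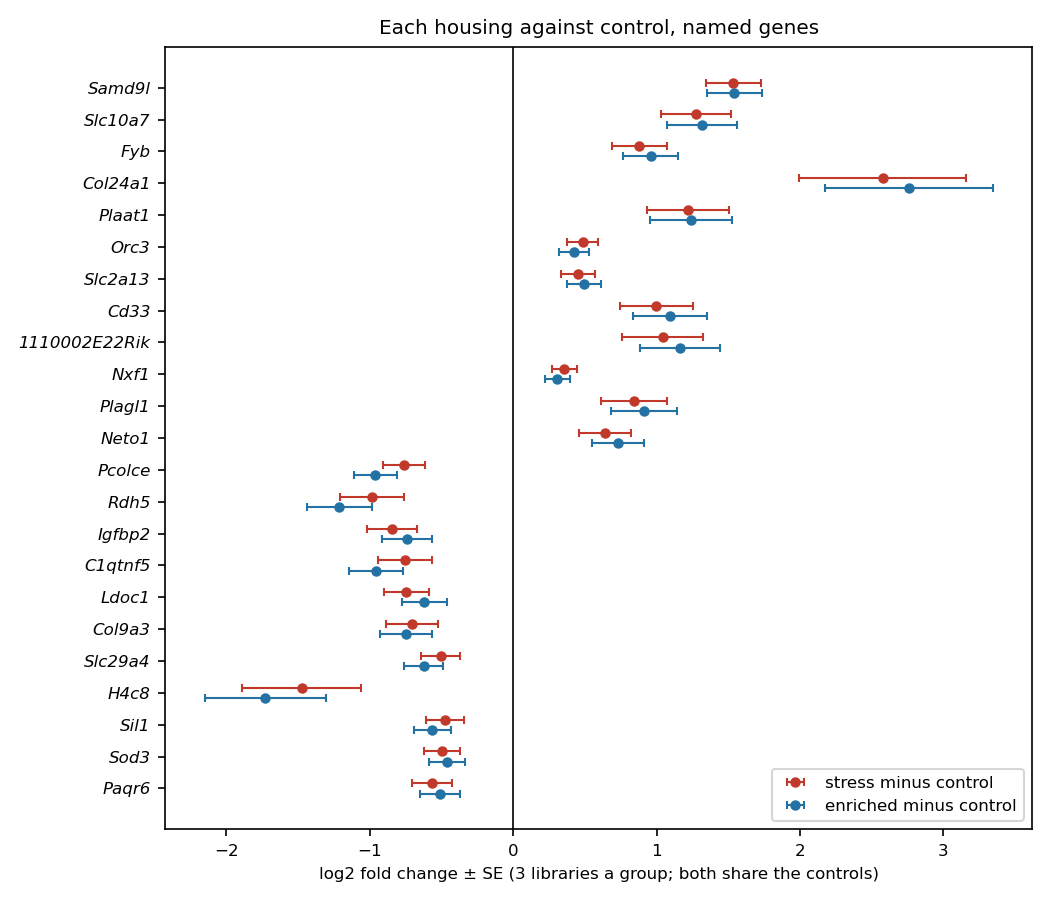
Log2 fold change with SE (x axis) of the named genes in stress minus control and in enriched minus control, 3 libraries a group. Both comparisons use the same 3 controls, and the genes were chosen by the pooled test, which favours little difference between stress and enriched. The closeness of paired points, as for Samd9l at 1.54 and 1.54, is thus partly built in.

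Stress and enriched libraries were also compared with each other. The fold change of this comparison sets no library against the controls, but the 3-group fit took its spread and scaling from all 9 libraries. No gene passed (0 genes, 0%, smallest adjusted p = 0.999 by edgeR's quasi-likelihood test), and 388 genes had an unadjusted p under 0.05 (2.64%). DESeq2 also called 0 genes, with a smallest adjusted p of 0.0641. Of the 672 genes without overlap between changed and standard housing, 13 had an unadjusted p under 0.05 here. Among the 24 named genes the smallest such p was 0.211, for Pcolce, whose stress minus enriched log2 difference was 0.20 ± 0.15 (SE). The lack of small p among these 24 is partly built in. They were chosen by the pooled test, where a difference between stress and enriched adds to the residual spread. A p above the threshold does not show that the effects of both housings were equal, and with 3 against 3 libraries the SE of this difference reached 0.50 for Col24a1. Against the controls they share, stress gave 0 called genes and 1172 at an unadjusted p under 0.05, and enrichment gave 0 and 2994.

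Of the interferon-stimulated list, 24 members were tested, and Samd9l was the only one to pass. The list had 17 members above 0 and 7 below, with a median log2 fold change of 0.20 beside 0.02 for all genes tested. On leaving out 1 library that median lay between 0.07 (without control replicate 3) and 0.34 (without control replicate 1). Parp14, an ADP-ribosyltransferase of the interferon response, was at 4.10, 2.72 and 3.75 CPM in the controls, at 5.28, 4.74 and 4.58 CPM in stress and at 5.33, 6.42 and 5.33 CPM in the enriched mice (log2 0.58 ± 0.18, adjusted p = 0.2185 by edgeR). Ifi44, another interferon-induced gene, and Ddx58, the RNA sensor RIG-I, likewise did not overlap, at 1.22 ± 0.41 and 0.35 ± 0.13 on the log2 scale. Ifi44 rested on 10, 2 and 9 estimated reads in the controls and on 11 to 19 in changed housing. Bst2, which tethers viruses to the cell surface, went the other way without overlap, at 12.8, 8.88 and 9.08 CPM in the controls, 5.22, 5.72 and 8.86 CPM in stress and 6.71, 7.85 and 6.59 CPM in the enriched mice (log2 -0.59 ± 0.19). Its control replicate 2 and stress replicate 3 were nearly equal. In sum 4 of the 24 members lay wholly above the controls (2.01% of all genes tested) and 1 wholly below (2.57%). The mean log2 CPM of the list, relative to the controls, ranged from -0.13 to 0.24 in the controls and from 0.06 to 0.43 in changed housing, so the groups overlapped.

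No member of any of the other 40 lists passed with edgeR, and the counts that follow are of unadjusted values, beside which 10% of all genes tested were higher and 10.9% lower at an unadjusted p under 0.05. List medians shifted with the libraries, and on the TPM with the median of all genes. Some of the alternatives that moved a median by over 1.5 times are given beside it, and others are left out. Immediate early genes, which neuronal activity switches on within minutes, had 15 of 19 members above 0 and 6 with an unadjusted p under 0.05, all higher (10% of all genes), with a median log2 fold change of 0.42, which was 0.28 without enriched replicates 1 and 3. No member was free of overlap between the 6 and the 3 libraries. Against the shared controls the list's median was 0.13 in stress and 0.60 in enrichment. Npas4, an activity-dependent transcription factor of neurons, was at 4.46, 2.23 and 6.84 CPM in the controls, at 3.76, 22.6 and 10.5 CPM in stress and at 14.6, 8.86 and 17.3 CPM in the enriched mice. Stress replicate 1 thus lay among the controls. Fosb, an AP-1 subunit, was at 5.04, 7.38 and 9.22 CPM in stress and at 17.0, 10.7 and 15.6 CPM in the enriched mice, a stress minus enriched log2 difference of -1.0 ± 0.26 (adjusted p = 0.999 by edgeR).

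GABA-A receptor subunits, which form the main inhibitory chloride channels of the brain, had 12 of 13 members above 0, a median of 0.41 and 8 members higher at an unadjusted p under 0.05 (10% of all genes). The median was 0.64 without control replicate 3. Gabra3, the alpha-3 subunit, did not overlap, with 54.1, 48.2 and 73.1 CPM in the controls, 82.1, 82.0 and 80.1 CPM in stress and 83.0, 73.8 and 92.3 CPM in the enriched mice (log2 0.49 ± 0.13). Control replicate 3 came within 1 CPM of the lowest enriched library. Plasticity genes had 15 of 20 above 0 and a median of 0.17 (0.26 without control replicate 3 and 0.08 with the length trend removed). Grin2b, an NMDA receptor subunit, was at 72.9, 63.3 and 121 CPM in the controls and between 130 and 176 CPM in changed housing (log2 0.79 ± 0.19, and 0.42 with the length trend removed). Marker genes of cortical excitatory neurons, whose share of the tissue bears on synaptic lists, had 10 of 11 members above 0 and a median of 0.44. That median was 0.22 without control replicate 2 and 0.22 with the length trend removed. The part of these genes in the results was not tested.

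Nuclear subunits of oxidative phosphorylation, the respiratory chain of mitochondria, had all 20 tested members below 0 and a median of -0.47, with 19 lower at an unadjusted p under 0.05 (10.9% of all genes). Cytosolic ribosomal proteins had all 20 below 0, a median of -0.38 and 16 lower at an unadjusted p under 0.05. Without control replicate 1 the medians were -0.23 and -0.20. Most of these genes have short transcripts. The shortest 10% of genes lay at 0.47, 0.14 and -0.02 in control replicates 1, 2 and 3, at -0.10, -0.15 and 0.13 in stress and at -0.05, -0.20 and -0.20 in the enriched libraries (median log2 deviation). With a trend on transcript length removed from each library, the medians were -0.10 for oxidative phosphorylation and -0.03 for ribosomal proteins. Rps18, a protein of the small ribosomal subunit, was the only member of either list without overlap, at 177, 130 and 131 CPM in the controls and 103 to 126 CPM in changed housing, and its log2 fold change went from -0.39 to -0.01 with that trend removed. Heat shock genes had 11 of 14 below 0 and a median of -0.18, which was -0.01 on TPM, -0.05 without control replicate 1 and -0.28 without control replicate 2.

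Targets of the glucocorticoid receptor, through which stress hormones act on transcription, had 8 of 16 members above 0 and a median of 0.01 (0.16 on TPM and -0.04 without stress replicate 3). Tsc22d3, a target also known as Gilz, was without overlap and lower, at 137, 114 and 109 CPM in the controls, 98.2, 94.3 and 92.0 CPM in stress and 109, 87.9 and 97.8 CPM in the enriched mice (log2 -0.32 ± 0.09, adjusted p = 0.2185 by edgeR). Its control replicate 3 at 109.33 CPM and enriched replicate 1 at 109.08 CPM were nearly equal. Circadian clock genes had 11 of 15 above 0 and a median of 0.10 (0.23 on TPM and 0.04 without control replicate 2). The insulin-like growth factor system had 5 of 10 above 0 and a median of 0.02 (-0.04 with the length trend removed). Igf1 itself was at 4.64, 3.44 and 10.3 CPM in the controls and between 6.90 and 18.3 CPM in changed housing, with a log2 difference of 1.0 ± 0.37 (1.60 without control replicate 3), while Igfbp2 was lower, as given above. Of 13 retinoid genes 10 were below 0, with a median of -0.14 (0.01 on TPM, -0.27 without control replicate 3, -0.06 without control replicate 2 and -0.07 without enriched replicates 1 and 3), and Ttr did not overlap.

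**Figure D3:**
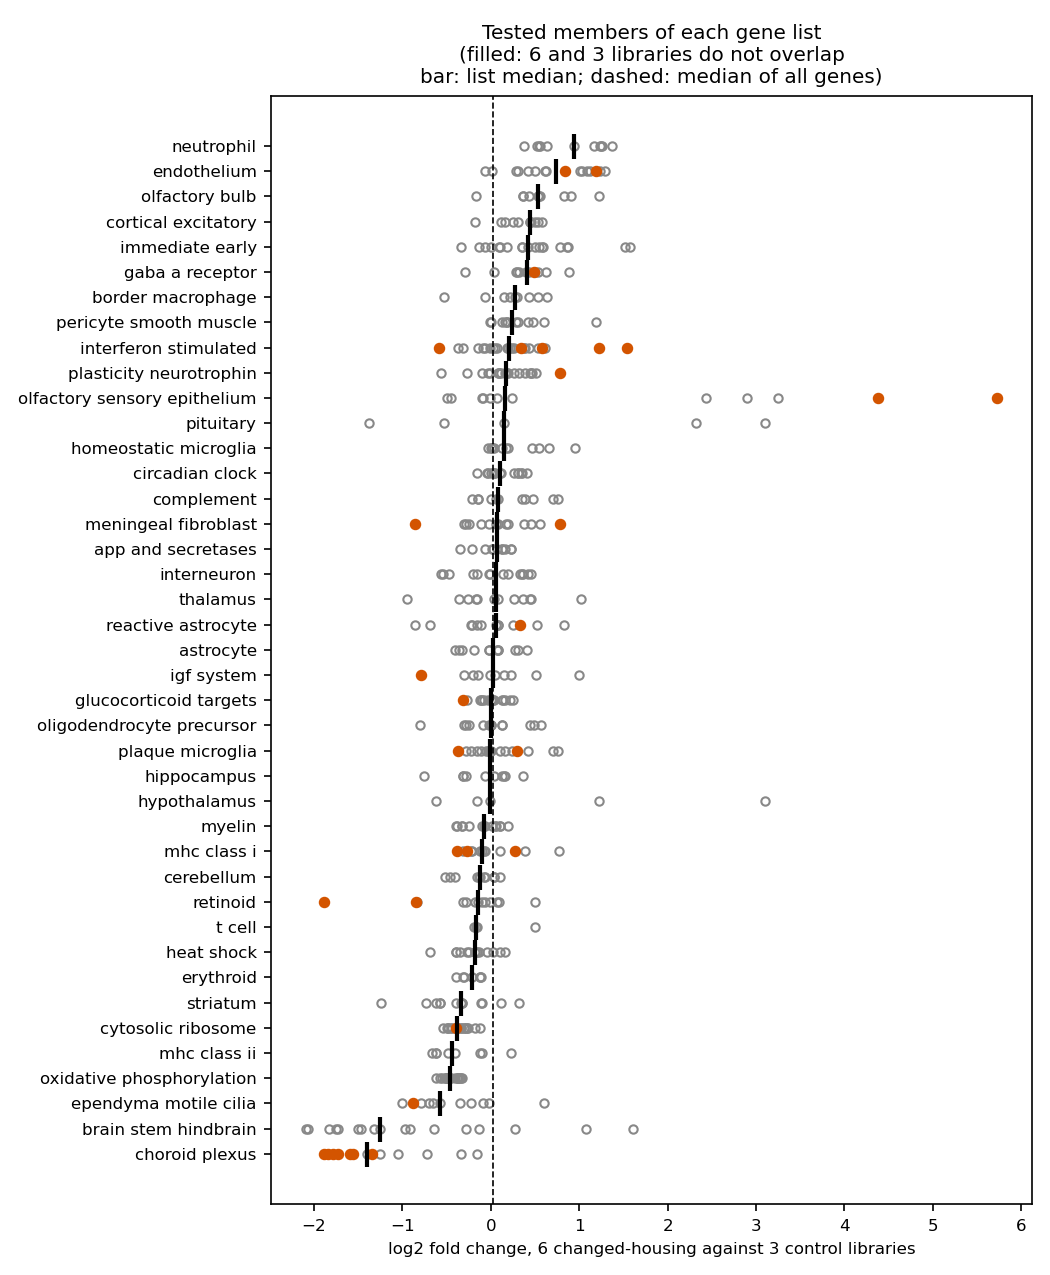
Log2 fold change, changed against standard housing (x axis), of each tested member of the 41 gene lists (rows, sorted by median), with filled points where the 6 and the 3 libraries do not overlap, a bar at the list's median and a dashed line at the median of all genes, 0.02. Medians run from -1.40 in choroid plexus to 0.94 in neutrophil genes.

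App and its secretases, which cut it into amyloid peptides, had a median of 0.07 with 8 of 11 above 0 and none at an unadjusted p under 0.05. That median was 0.25 on TPM, 0.02 without control replicate 1 and 0.02 without enriched replicates 1 and 3. Genes that microglia raise around plaques had 7 of 16 above 0 and a median of -0.00, which was 0.19 on TPM, 0.16 with the length trend removed and 0.11 without control replicate 1. Within that list Csf1, a growth factor of microglia, was without overlap and higher (29.4, 28.6 and 29.6 CPM in the controls, 32.6 to 40.6 CPM in changed housing), while Cd63, a tetraspanin of lysosomes, was without overlap and lower (102 to 134 CPM against 79.4 to 100 CPM). Homeostatic microglia genes had 11 of 12 above 0 and a median of 0.15 (0.30 on TPM and 0.09 without control replicate 2). P2ry12, the purinergic receptor of resting microglia, was at 10.7, 14.7 and 24.6 CPM in the controls and between 18.8 and 35.5 CPM in changed housing. Complement genes had 8 of 11 above 0 and a median of 0.08, with no member at an unadjusted p under 0.05. That median was 0.27 without control replicate 1, 0.25 without enriched replicate 3, 0.01 without stress replicate 1 and 0.24 with the length trend removed.

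Antigen presentation genes lay on both sides of the controls. MHC class II genes, which present peptides to CD4 T cells, had 7 of 8 members below 0, a median of -0.44 and 5 lower at an unadjusted p under 0.05 (10.9% of all genes). The median was -0.26 on TPM and -0.22 with sample weights in limma-voom. H2-Aa was at 13.4, 8.09 and 12.7 CPM in the controls, 9.29, 5.48 and 4.82 CPM in stress and 8.03, 9.39 and 7.46 CPM in the enriched mice, so the groups overlapped. The median was -0.54 in stress and -0.35 in enrichment against the shared controls. MHC class I genes, which present peptides to CD8 T cells and whose family members share reads, had 9 of 13 below 0 and a median of -0.10, which was 0.06 on TPM, 0.08 with the length trend removed, -0.16 without control replicate 2 and -0.01 without control replicate 1. B2m, the light chain of class I, was without overlap and higher, at 156, 138 and 154 CPM in the controls and 160 to 197 CPM in changed housing (log2 0.28 ± 0.08). H2-D1, a heavy chain, was without overlap and lower, at 147 to 160 CPM against 115 to 142 CPM (log2 -0.27 ± 0.08), as was Tap2, a subunit of the peptide transporter (log2 -0.38 ± 0.12). Of 15 T cell genes 4 had enough counts to be tested. Thy1 was at 651 to 961 CPM, and Cd247, Lck and Cd4 were at 0.12 to 1.38 CPM. Whether the Thy1 reads came from T cells was not tested. Cd8a had 4, 5 and 3 estimated reads in the controls, 3, 1 and 2 in stress and 2, 2 and 5 in the enriched mice.

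Blood and vessel genes varied between animals. All 11 tested neutrophil genes were above 0, with a median of 0.94, which was 0.36 without stress replicate 1, and 5 were higher at an unadjusted p under 0.05 (10% of all genes). None was free of overlap. Levels of Ngp, which neutrophils store in their granules, were 9.77, 8.82 and 8.41 CPM in the controls, 50.5, 11.6 and 20.2 CPM in stress and 16.2, 24.3 and 6.59 CPM in the enriched mice. Stress replicate 1 was the highest library, and enriched replicate 3 was below the controls. Erythroid genes, a sign of blood left after perfusion, had all 7 tested members below 0 and a median of -0.21 (0.01 with the length trend removed, 0.07 without control replicate 3 and -0.48 without stress replicate 1). Endothelial genes had 15 of 16 above 0, a median of 0.73 and 7 higher at an unadjusted p under 0.05 (10% of all genes). Abcb1a, the drug efflux pump of the blood-brain barrier, was at 9.59, 9.06 and 11.4 CPM in the controls, 18.8, 39.5 and 12 CPM in stress and 13.5, 27.1 and 26.3 CPM in the enriched mice (log2 1.19 ± 0.35). Cdh5, the cadherin of endothelial junctions, was also without overlap, although stress replicate 3 at 7.33 CPM and the highest control at 7.32 CPM were nearly equal. Pericyte and smooth muscle genes had 10 of 12 above 0 and a median of 0.24 (0.04 without control replicate 3 and 0.45 without control replicate 2).

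Border tissue gave the lowest list median. All 13 choroid plexus genes were below 0, with a median of -1.40. There were 7 without overlap (2.57% of all genes lay wholly below) and 4 lower at an unadjusted p under 0.05 (10.9% of all genes). Without enriched replicates 1 and 3 the median was -0.98. Ttr, the thyroxine and retinol carrier that the choroid plexus makes, was at 3121, 2939 and 3566 CPM in the controls, 330, 1427 and 1393 CPM in stress and 24, 2023 and 11 CPM in the enriched mice. Every changed-housing library was below every control, yet the spread within changed housing left an SE of 1.13 on a log2 fold change of -1.89 (adjusted p = 0.319 by edgeR). It was -1.32 without enriched replicates 1 and 3 and -3.40 on log2(TPM + 1). Folr1, the folate receptor of this epithelium, was at 0 reads in enriched replicate 3 and at 7.73 CPM in enriched replicate 2. Ependymal cilia genes had 10 of 11 below 0 and a median of -0.57 (-0.50 without enriched replicates 1 and 3, -0.30 on TPM). Meningeal fibroblast genes had a median of 0.07 (0.10 without enriched replicates 1 and 3, 0.01 without control replicate 2), with Col6a1, a collagen VI chain, wholly above the controls (20.5, 24.7 and 28.0 CPM against 28.7 to 56.8 CPM) and Pcolce wholly below.

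Transcripts of the olfactory mucosa, which lies next to the brain, were found in some libraries. Omp, which mature olfactory sensory neurons make in quantity, stood at 0.362, 0.362 and 0.424 CPM in the controls, 0.911, 4.06 and 1.16 CPM in stress and 67.3, 0.476 and 50.3 CPM in the enriched mice. Enriched replicates 1 and 3 thus stood far above all others, and these were the libraries lowest in choroid plexus. The log2 fold change of 5.73 ± 2.06 (adjusted p = 0.2185 by edgeR) was 2.08 without them. Among the 12 tested olfactory mucosa genes 7 were above 0 and 5 below, with a median of 0.16. It was -0.07 without these 2 libraries and 0.57 without control replicate 3. The list also held Gng13, at 4442 to 5455 estimated reads in the controls, so its median need not follow mucosal RNA. Clca3a1 had 1 to 3 reads in the controls, 10, 25 and 30 in stress and 77, 15 and 105 in the enriched mice (adjusted p = 0.2185 by edgeR). Omp and Clca3a1 lay above every control in all 6 changed-housing libraries (2.01% of all genes). Olfactory bulb genes had 9 of 10 above 0 and a median of 0.54 (0.31 without control replicate 2 and 0.94 without control replicate 3).

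Of the regional lists, brain stem genes had 14 of 17 members below 0, a median of -1.26 and 5 lower at an unadjusted p under 0.05 (10.9% of all genes), none without overlap. The median was -0.41 on TPM and -0.78 without control replicate 2. Hoxa5, a Hox gene of the hindbrain and spinal cord, was at 3.32, 6.64 and 0.545 CPM in the controls, 1.09, 1.97 and 0 CPM in stress and 0.539, 1.37 and 0 CPM in the enriched mice. Control replicate 3 was within the range of the changed-housing libraries, and the part of brain stem content in the results was not tested. Striatal genes had 11 of 13 below 0 and a median of -0.34, which was 0.03 without control replicate 2 and -0.59 without control replicate 3. Astrocyte, myelin, oligodendrocyte precursor, hippocampal, interneuron, thalamic and cerebellar lists had medians between -0.12 and 0.06. All but the interneuron list changed sign under at least 1 other scaling or with the length trend removed. The interneuron median moved from 0.06 to 0.23 on TPM, where that of all genes was 0.15. It was 0.26 with the length trend removed and -0.07 without control replicate 2.

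**Figure D4:**
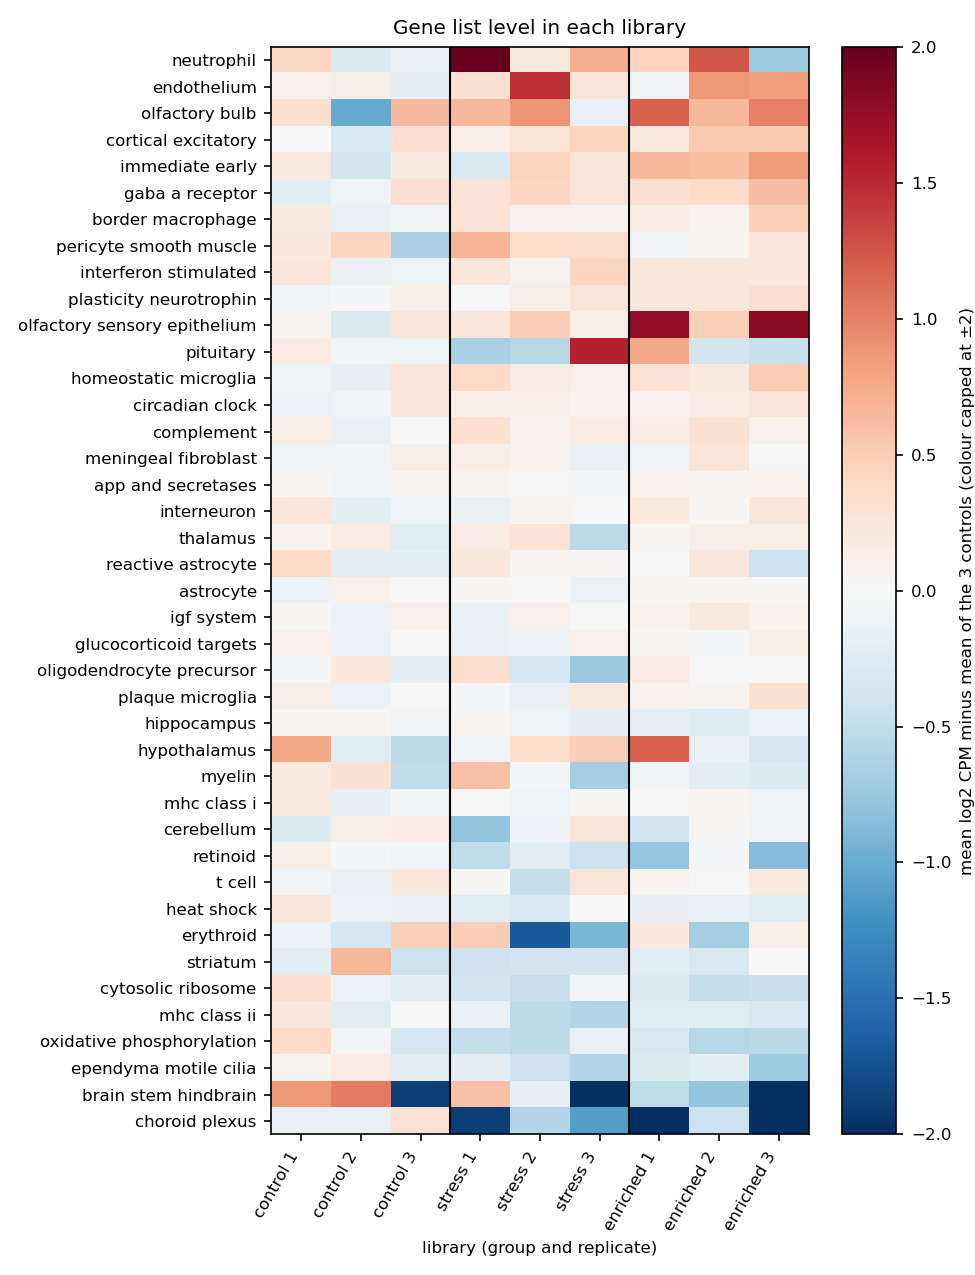
Mean log2 CPM of each gene list in each library, relative to the mean of the 3 controls (colour, capped at 2 either way), with lists as rows in the order of their medians and libraries as columns grouped into control, stress and enriched. Choroid plexus is lowest in enriched replicates 1 and 3 (-3.32 and -3.59), and brain stem is low in replicate 3 of each group (-1.88, -2.46 and -2.57).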

How the data were processed

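RNA was sequenced from oligo(dT)-selected libraries of 9 brains, without strand marking or molecular identifiers, per the labels' protocols. Per the submitters' processing notes, the build was GRCm38.p6 and the tools were RSEM 1.2.12, HISAT2 2.0.4 and Bowtie2 2.2.5, with no roles given. The authors deposited, for each of 65535 transcripts, an estimated count (56.5% of the values were not whole numbers), a TPM and an FPKM. The 9 FPKM columns were not used. Estimated counts were summed to 18450 genes by gene identifier, of which 18398 matched RefSeq, and rounded. Reads that similar transcripts or overlapping antisense genes share cannot be told apart.

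Genes were filtered with filterByExpr (minimum count 10, minimum total 15), scaled by TMM and tested with robust quasi-likelihood in edgeR 4.0.16 on R 4.3.3, changed against standard housing, with 7 residual degrees of freedom. Standard errors came from the F statistic. Stress and enriched were separated in a 3-group fit. The Benjamini-Hochberg adjustment ran over all 14694 tested genes, with a threshold of 0.05. The tests and standard errors rest on the spread between these animals. Alternatives used limma 3.58.1, DESeq2 1.42.0 and log2(TPM + 1) (the closing section gives their effect). The script was tested on simulated data. Libraries were checked for duplicates by chi-square, which was 7.63 or more per gene in every pair, so all 9 were kept.

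The text names the 12 higher and 12 lower genes with the smallest p among those averaging at least 1 CPM, up to 4 members of each list by p, and Ttr and Omp. A gene that the rule names is not reported here. Hoxa5, Folr1, Cd8a and other list members outside that rule were picked with their values in view. The comparison and the 41 lists (540 of 556 different genes had a row) were chosen with earlier results of these data known.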

Additional observations from a re-analysis of the deposited data

Results flagged for a closer look

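In 68 sets of 6 changed-housing libraries (named genes and list means), the highest or lowest library was set against the other 5 by Dixon's ratio. Chance flags about 1 set in 20, and 6 sets were flagged. Orc3 was at 67.6 CPM in stress replicate 2, above 57.9 to 60.6 CPM in the others. Slc29a4 was at 34.8 CPM in enriched replicate 3, below 45.4 to 47.3 CPM in the others. On the scale of mean log2 CPM relative to the controls, T cell genes were at -0.47 in stress replicate 2, below -0.01 to 0.26 in the others. Of these genes, Cd4 had 2 estimated reads in that library and 9 to 17 in the others. Astrocyte genes were at -0.12 in stress replicate 3, where the others lay at -0.02 to 0.04. Reactive astrocyte genes were at -0.43 in enriched replicate 3, where the others lay at -0.00 to 0.22. Thalamic genes were at -0.52 in stress replicate 3, where the others lay at 0.04 to 0.28.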

How the results depend on the processing

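No paired analysis was possible because the labels give no replicate numbers that groups share. Against 1 gene called in the main fit, 1 was called with limma-voom, with DESeq2's size factors in edgeR and with no filter on low counts. DESeq2 called 53 genes (25 higher, 28 lower), but left Samd9l without an adjusted p because its independent filter dropped genes under a mean count of 122.7. Without that filter, an alternative chosen after seeing the data, DESeq2 called 67 with Samd9l at an adjusted p of 2.68e-09. The count was 0 with the 3-group fit, with TPM, with the letter as a covariate, with the length trend removed and without enriched replicates 1 and 3 together (chosen after seeing the data; adjusted p of Samd9l 0.436 by edgeR). Limma-voom with sample weights, also chosen after seeing the data, called 5887 with a weight of 3.90 on control replicate 2 and of 0.451 and 0.412 on the other controls. Leaving out 1 library gave 0 to 1771 calls, the highest without control replicate 3. Genes without overlap numbered 672 in the main fit, 661 with DESeq2's size factors, 558 on TPM, 726 with no filter, 1145 without enriched replicates 1 and 3, and 720 to 4499 on leaving out 1 library. For these the construction differs, since fewer libraries have to be separated. The cause of the other shifts was not tested. The 24 named genes kept their sign in all 473 values under alternatives, 93 of which passed. This sign agreement is largely built in, since the genes were chosen by p and the alternatives reuse the same libraries. Most of the passing values came from the fit without control replicate 3 (24 genes), sample weights (24), DESeq2 (17) and DESeq2 without its filter (23). Of 820 list medians under alternatives, 783 moved by less than 1 SD between replicates. That SD is of the list's mean log2 CPM per library, another measure than the median fold change. Where it is wide, large moves stay under it. The neutrophil median, with an SD of 0.81, went from 0.94 to 0.36 without stress replicate 1. Depth limits genes such as T cell markers at a few reads per library.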

Other observations

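Border-associated macrophage genes had 7 of 9 tested members above 0 and a median log2 fold change of 0.27 in changed against standard housing (0.17 without control replicate 2). Reactive astrocyte genes had 7 of 13 above 0 and a median of 0.06, which was -0.03 with the length trend removed and -0.14 without control replicate 2. The 4 tested T cell genes, of which Thy1 was far above Cd247, Lck and Cd4 in level, had a median of -0.17. It was 0.00 on TPM and 0.01 without control replicate 2. The 5 tested hypothalamic genes had a median of -0.01, which was 0.15 on TPM, 0.24 with the length trend removed and 0.39 without control replicate 1. The 5 tested pituitary genes had a median of 0.15, which was -0.21 without enriched replicate 1 and 0.54 without control replicate 3. No member of these lists passed the adjusted threshold with edgeR.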
